A study of Mus musculus with 18 samples.

Results

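The genes described here encode the proteins of the mitochondrial ribosome that carry the mouse symbols Mrpl (large subunit) and Mrps (small subunit). They were taken from the deposited count tables as every symbol that begins with Mrpl or Mrps followed by a digit and has at least 100 counts summed over all libraries. All 77 symbols of that form passed this minimum, among the 24394 symbols that the 3 tables share. By textbook assignment 50 encode large-subunit proteins and 26 small-subunit proteins, while Mrps36 encodes a protein now assigned to the alpha-ketoglutarate dehydrogenase complex and not to the ribosome. Of the 76 ribosomal genes, 46 have a bacterial counterpart and 30 are specific to mitochondria. Mrps18a and Mrps30 carry small-subunit names but encode proteins that sit in the large subunit.

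Mitochondrial ribosomes translate the few mRNAs of the mitochondrial genome, all of which encode core subunits of the respiratory chain and the ATP synthase. Their RNA is transcribed inside the organelle, but every one of their proteins is encoded in the nucleus, made in the cytosol and imported. Assembly therefore needs import receptors and chaperones, ribosome assembly factors and mitochondrial transcription, and the finished particle works with its own translation factors and tRNA synthetases.

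The study measured RNA of mouse esophageal organoids, which are small epithelial structures grown from dissociated tissue in a gel. By the labels, every group lacked Trp53 (Trp53-/-), overexpressed Myc (Myc OE), a transcription factor that drives growth genes, and carried a guide RNA against the cell cycle inhibitor Cdkn2a (sgCdkn2a). Premalignant organoids had a control guide (sgScr, n = 3) or a guide against Tgfbr2, the type II TGF-beta receptor, in 2 numbered sets of libraries (sgTgfbr2_1, n = 2, and sgTgfbr2_2, n = 2), called set 1 and set 2 below. Organoids labelled as tumor had sgScr (n = 3) or sgTgfbr2 (n = 2). Another table compared sgTgfbr2 tumor organoids given DMSO (vehicle, n = 3) or 2 µM pinaverium bromide, which blocks calcium channels (PB, n = 3), after 72 h of culture. The listed organoid medium held 2 µM A83-01, an inhibitor of TGF-beta type I receptors. What the set number stands for, and whether replicates were separate cultures or animals, is not given in the labels, so the p-values reflect variation among the libraries at hand, part of which may be technical.

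Libraries held 14993749 to 21784140 counts, and the least counted of the 77 genes, Mrps11, had 5438 counts over the 18 libraries. Every one of the 77 passed the filter on low counts in each comparison. Tgfbr2 itself fell in both sgTgfbr2 comparisons, with log2 fold changes of -0.86 ± 0.14 (SE, adjusted p = 0.00132) in premalignant and -1.08 ± 0.13 (SE, adjusted p = 4.19e-07) in tumor libraries by edgeR's quasi-likelihood test with Benjamini-Hochberg adjustment, the test used throughout. The tumor libraries held RNA of cell types that an epithelial culture would lack. Summed CPM, which set counts on the same scale in every library, of 15 skeletal muscle markers were 24248 to 25325 in tumor sgScr and 234 to 279 in tumor sgTgfbr2, against 8.98 to 18.7 in every other group. Fibroblast markers (7 genes) summed to 2301 to 3046 CPM in both tumor groups and to at most 4.69 elsewhere.

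The 77 genes together took 0.512%, 0.537% and 0.453% of all counts in the premalignant sgScr libraries. In set 1 the share was 0.409% and 0.395%, and in set 2 it was 0.332% and 0.355%. All 4 premalignant sgTgfbr2 libraries were thus below all 3 sgScr libraries, and set 2 was below set 1. Tumor sgScr libraries had 0.287%, 0.310% and 0.282% and tumor sgTgfbr2 libraries 0.350% and 0.307%, which overlap. Vehicle libraries lay between 0.313% and 0.317% and PB libraries between 0.297% and 0.300%, without overlap. Premalignant sgScr had the highest mean CPM of the 7 groups for 59 of the 77 genes. The lowest mean fell in PB for 28, in tumor sgScr for 22 and in tumor sgTgfbr2 for 13. These levels are set across 3 separately deposited tables and carry no test.

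**Figure D1:**
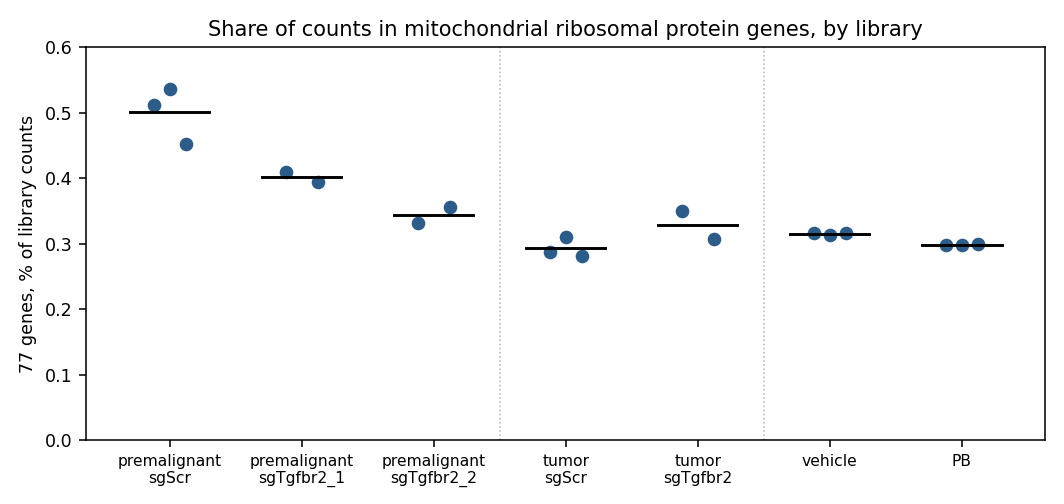
Share of each library's counts (percent, y axis from 0) that fell in the 77 mitochondrial ribosomal protein genes, by group; points are libraries and bars are group means. Premalignant sgScr libraries sit highest, at 0.453% to 0.537%, set 1 and set 2 sit below them, and the tumor, vehicle and PB libraries lie between 0.282% and 0.350%.

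Although their proteins are needed in comparable copy number in the particle, the transcripts differed widely in level. Per kb of the principal transcript, Mrpl33 had the highest mean, with 230.3 CPM per kb over the 18 libraries, followed by Mrpl52 with 130.2 and Mrpl42 with 128. This order pools groups that differ: in tumor sgScr Mrpl42 had 174 ± 8.97 CPM per kb (SD, n = 3), above the mean of Mrpl33 and of Mrpl52 there, and in tumor sgTgfbr2 it had 60.4 ± 1.96 (SD, n = 2). At the other end were Mrps25 with 4.94, Mrpl47 with 5.28 and Mrpl19 with 7.31 CPM per kb, all genes with transcripts of 3364 bases or more. Mrpl33, which encodes the counterpart of bacterial L33, ranged between groups from 163 ± 16.2 CPM per kb (SD, n = 3) in tumor sgScr to 415 ± 14.1 (SD, n = 2) in set 1. The highest and lowest library of a gene differed 1.64-fold (Mrpl21) to 5.36-fold (Mrpl41), with a median of 2.87-fold over the 77 genes, on the CPM scale.

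In premalignant organoids the genes of the mitochondrial ribosome were lower with the Tgfbr2 guide. Of 77 genes, 58 fell, 1 rose (Mrpl24) and 18 did not pass an adjusted p of 0.05. Over the 13098 genes tested, 23.5% fell and 22.7% rose. The median log2 fold change of the 77 genes was -0.55, and that of all tested genes was -0.0037. A fold change below zero was estimated for 71 of the 77. Both subunits took part, with 39 of 50 large-subunit genes (median -0.54) and 18 of 26 small-subunit genes (median -0.59) lower. Genes with a bacterial counterpart (34 of 46 lower, 1 higher) and those specific to mitochondria (23 of 30 lower) had medians of -0.53 and -0.56. With a change of at least 0.5 on the log2 scale also required, 44 genes fell, against 13.9% of all genes tested, and none rose, against 17.1%. All 4 sgTgfbr2 libraries lay below all 3 sgScr libraries for 60 of the 77 genes, as for 26.6% of all genes, and above them for 1, as for 24.9%. The 4 sgTgfbr2 libraries come from 2 sets. With each set summed to 1 library, 47 genes fell and none of the 77 rose, where 15.3% of 13320 genes fell and 17.3% rose.

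The largest decreases were near 2-fold. Mrps26 (chromosome 2, 130563742 to 130568695, plus strand, GRCm38), which encodes a mitochondrion-specific small-subunit protein, had 91.0, 87.9 and 59.5 normalized CPM in the 3 sgScr libraries, 39.5 and 36.4 in set 1 and 29.8 and 34.3 in set 2. Every sgTgfbr2 library was below every sgScr library, and sgScr replicate 3 was the lowest of its group. The mean was 35.0 ± 4.07 (SD, n = 4) in sgTgfbr2 and 79.5 ± 17.4 (SD, n = 3) in sgScr, a log2 fold change of -1.18 ± 0.16 (SE, adjusted p = 5.25e-04) by edgeR. Exons of Mrps26 overlap the opposite-strand gene 4930473A02Rik, and reads of overlapping genes cannot be told apart where the strand setting of the counting is not given.

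Mrpl20 (chromosome 4, 155802878 to 155809975, plus strand), the counterpart of a bacterial protein that binds ribosomal RNA early in large-subunit assembly, had 92.3, 89.9 and 70.2 normalized CPM in the 3 sgScr libraries, 53.2 and 49.3 in set 1 and 25.4 and 33.1 in set 2. The groups did not overlap, and set 2 was lower than set 1. Its log2 fold change was -1.06 ± 0.23 (SE, adjusted p = 0.00539) by edgeR. Mrpl12 (chromosome 11, 120484613 to 120489065, plus strand) encodes the stalk protein that receives translation factors, and is also known to bind the mitochondrial RNA polymerase. It had 236, 258 and 179 normalized CPM in the 3 sgScr libraries, 133 and 123 in set 1 and 86.0 and 96.2 in set 2. Here too the 3 groups were ordered without overlap, sgScr above set 1 above set 2, with a log2 fold change of -1.03 ± 0.17 (SE, adjusted p = 0.00143) for sgTgfbr2 against sgScr by edgeR.

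Mrpl18 (chromosome 17, 12911349 to 12916345, minus strand), whose bacterial counterpart binds 5S ribosomal RNA, had 107, 125 and 89.6 normalized CPM in the 3 sgScr libraries, 60.0 and 53.2 in set 1 and 47.4 and 50.9 in set 2. All sgTgfbr2 libraries were below all sgScr libraries, and the log2 fold change was -1.02 ± 0.12 (SE, adjusted p = 3.93e-04). Mrps34 (chromosome 17, 24895116 to 24897502, plus strand), a mitochondrion-specific protein needed for a stable small subunit, had 84.7, 92.9 and 75.4 normalized CPM in the 3 sgScr libraries, 45.9 and 44.4 in set 1 and 38.8 and 38.7 in set 2. Its libraries were closely grouped within sgTgfbr2, at 42.0 ± 3.75 (SD, n = 4) against 84.3 ± 8.79 (SD, n = 3) in sgScr, and the log2 fold change was -1.01 ± 0.10 (SE, adjusted p = 1.80e-04). Mrps28 (chromosome 3, 8802146 to 8923918, minus strand), a small-subunit protein, had 37.8, 40.6 and 31.3 normalized CPM in the 3 sgScr libraries, 25.4 and 20.8 in set 1 and 13.4 and 16.8 in set 2. It too was lower in every sgTgfbr2 library, by -0.94 ± 0.20 (SE, adjusted p = 0.00466) on the log2 scale. Exons of Mrpl18 overlap the abundant opposite-strand gene Tcp1, and those of Mrps34 overlap Nme3 on the same strand and Mapk8ip3 on the other. Among all 77 genes, 23 overlap an exon of another gene in the tables when symbols are matched, 4 of them on the same strand. This count leaves out Mrpl43, which overlaps the opposite-strand helicase gene Twnk, listed in the tables under the older symbol Peo1.

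Mrpl24 (chromosome 3, 87919506 to 87923672, plus strand), the counterpart of a bacterial protein that starts large-subunit assembly, was the 1 member that rose. It had 57.7, 54.9 and 49.6 normalized CPM in the 3 sgScr libraries, 61.7 and 66.3 in set 1 and 65.8 and 80.9 in set 2. All sgTgfbr2 libraries were above all sgScr libraries by a small margin, and the log2 fold change was 0.34 ± 0.11 (SE, adjusted p = 0.0291). Its call was lost when any 1 sgScr library was left out, when the replicate number was a block, and when each set was summed to 1 library. Mrpl24 shares exon sequence with Rrnad1 on the opposite strand.

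Most members with a special place or role were also lower. The 3 Mrps18 genes encode proteins related to 1 bacterial protein. Only Mrps18c is counted above among genes with a bacterial counterpart, and Mrps18a and Mrps18b are counted as specific to mitochondria. Mrps18a, placed in the large subunit, fell by 0.68 ± 0.10 (SE, adjusted p = 6.76e-04) on the log2 scale, and Mrps18b, placed in the small subunit, fell by 0.74 ± 0.11 (adjusted p = 9.45e-04). Mrps18c, also placed in the small subunit, had 46.1, 41.0 and 31.2 normalized CPM in the 3 sgScr libraries, 38.7 and 34.2 in set 1 and 23.1 and 24.8 in set 2, which overlap, with a log2 fold change of -0.38 ± 0.20 (SE, adjusted p = 0.141) that did not pass. Mrps30, a large-subunit protein despite its name, had -0.46 ± 0.08 (SE, adjusted p = 0.00169). Mrpl44, a large-subunit protein related to ribonuclease III, had -0.80 ± 0.10 (SE, adjusted p = 4.09e-04), and Mrps36, the dehydrogenase subunit, had -0.48 ± 0.14 (SE, adjusted p = 0.0229). In bulk RNA, fewer cells of a type and less RNA per cell cannot be told apart.

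Mrpl33 had the highest estimate of the 77 and did not pass. It had 103, 124 and 108 normalized CPM in the 3 sgScr libraries, 199 and 188 in set 1 and 90.7 and 107 in set 2. Set 1 was above sgScr and set 2 overlapped it, so the pooled log2 fold change was 0.39 ± 0.26 (SE, adjusted p = 0.25). The other 17 genes that did not pass were Mrpl55, Mrpl54, Mrps33, Mrps18c, Mrps17, Mrps35, Mrps9, Mrpl30, Mrpl1, Mrpl23, Mrpl45, Mrpl48, Mrps14, Mrpl14, Mrps31, Mrpl38 and Mrps16.

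**Figure D2:**
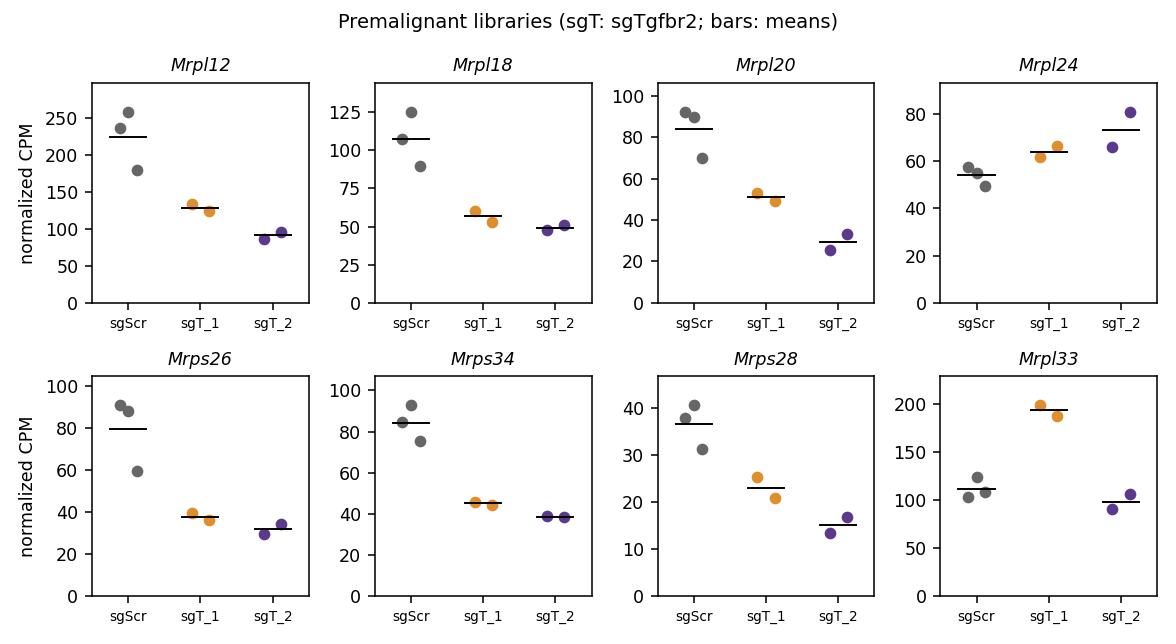
Normalized CPM (y axis from 0) of 8 mitochondrial ribosomal protein genes in the 7 premalignant libraries; points are libraries, bars are means, and sgT_1 and sgT_2 are the numbered sgTgfbr2 sets. Mrpl12, Mrpl18, Mrpl20, Mrps26, Mrps28 and Mrps34 are lower in every sgTgfbr2 library, Mrpl24 is slightly higher, and Mrpl33 is higher in set 1 only.

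Markers of other cells also differed between these groups. The summed level of 8 immune markers was 14.9 to 27.7 CPM in sgScr, 35.3 to 37.7 in set 1 and 58.7 to 60.7 in set 2, while Lyz2, Tyrobp, Cd3e and Adgre1 had no count in any of the 3 groups. Only 2 of the 8 passed the filter on low counts, and these 2 were called higher in sgTgfbr2. The sum of 10 squamous markers was 9658 to 10122 CPM in sgScr, 5386 to 5536 in set 1 and 8049 to 8238 in set 2. These 10 did not move together: 5 were called lower in sgTgfbr2, 2 were called higher and 3 did not pass. The sum of 12 gastric columnar markers was 823 to 872 CPM in sgScr and 1150 to 1226 in the 4 sgTgfbr2 libraries, without overlap. Gkn2, Tff1 and Atp4b had no count in any of the 3 groups, and Gkn1, Tff2, Muc5ac and Pgc had none in set 2. The 12 include the keratins Krt8 and Krt18, and the sum is not read as a level of gastric cells. Only 3 of these 12 passed the filter on low counts, of which 1 was called higher and 2 did not pass, so the sum rests on few genes. Skeletal muscle, smooth muscle, fibroblast and endothelial sums were at most 16.4 CPM in any premalignant library. Their part in the lower ribosomal protein transcripts was not tested.

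Fitted against the same 3 sgScr libraries, each set alone gave the same direction. Set 1 had 54 of the 77 genes lower and 2 higher, where 24.0% of 13154 genes fell and 25.3% rose, and the median was -0.40. Set 2 had 66 lower and 2 higher, where 28.5% of 13290 genes fell and 27.7% rose, and the median was -0.68. The shared sgScr libraries mean that these 2 results are not independent of each other. Mrpl20 had log2 fold changes of -0.68 in set 1 and -1.53 in set 2, Mrps26 had -1.03 and -1.32, and Mrps16 had -0.27 (adjusted p = 0.085) and 0.46 (adjusted p = 0.00743). For Mrpl33 the values were 0.82 ± 0.09 (SE, adjusted p = 3.57e-05) in set 1 and -0.19 ± 0.11 (adjusted p = 0.154) in set 2.

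**Figure D3:**
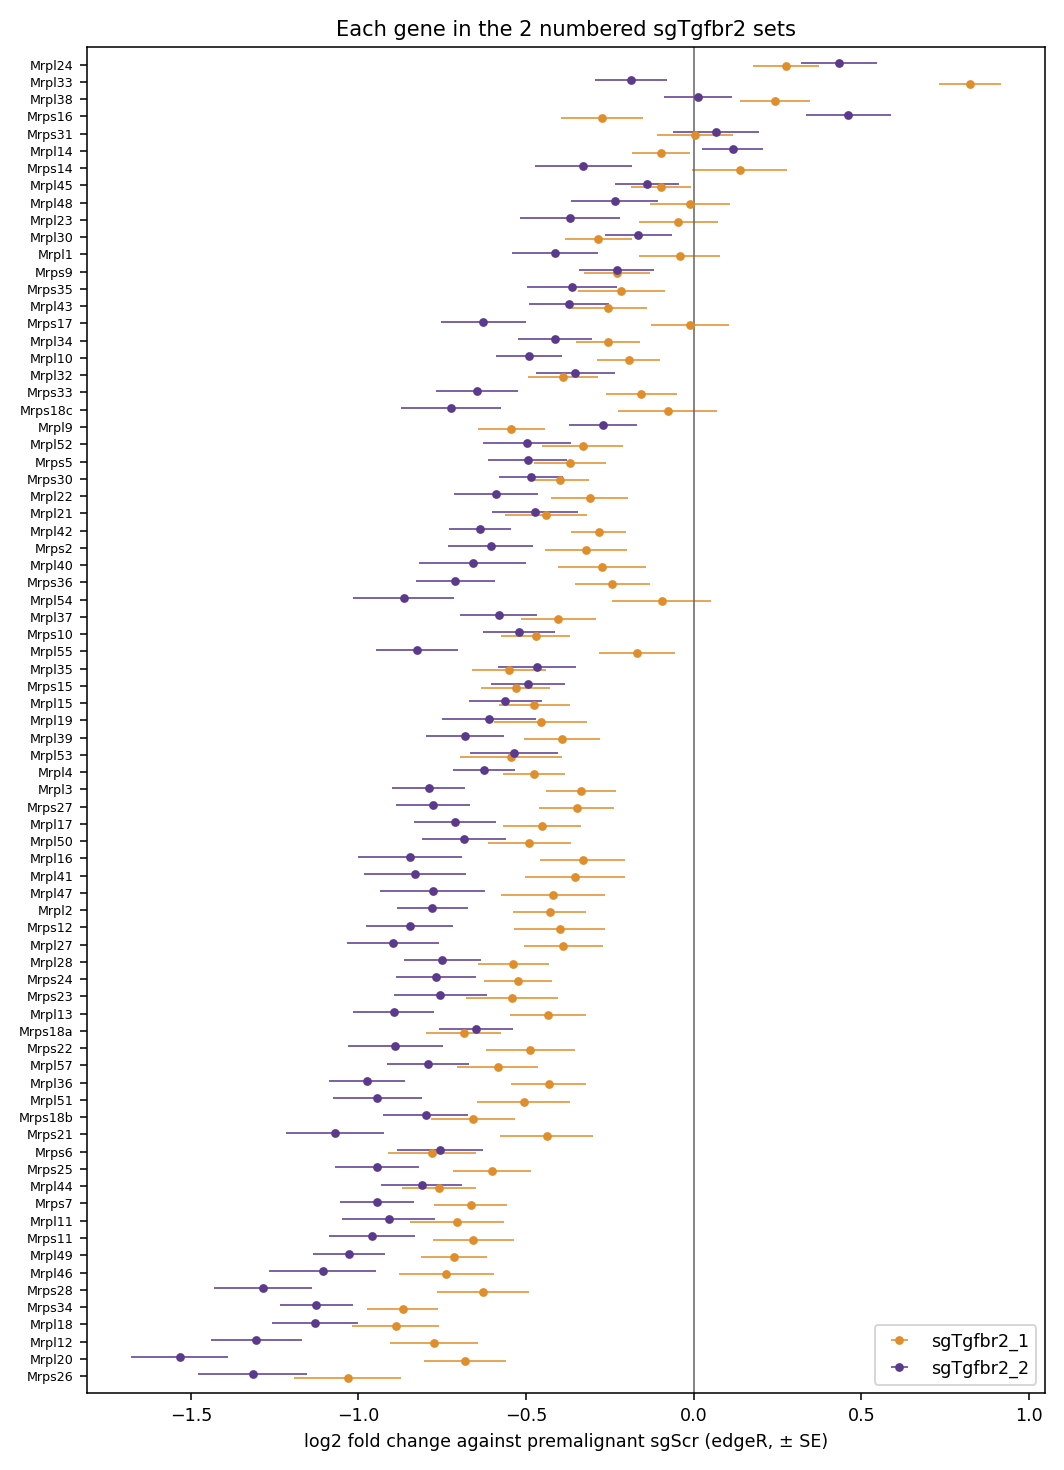
Log2 fold change against premalignant sgScr (x axis, edgeR, horizontal bars ± SE) of each of the 77 genes in set 1 (orange) and set 2 (purple), which share the 3 sgScr libraries. Most genes lie left of zero in both sets, and set 2 usually lies further left; Mrpl33 is at 0.82 in set 1 and -0.19 in set 2, and Mrps16 lies further right in set 2, at 0.46 against -0.27.

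The sets were also compared with each other without the controls. In set 2, 35 of the 77 genes were lower than in set 1 and 3 were higher, where 20.0% of 13118 genes were lower and 20.4% higher. The median was -0.22, against 0.000147 over all genes. Both set 2 libraries lay below both set 1 libraries for 54 genes and above them for 4, where 35.1% and 34.9% of all genes did so. With a change of at least 0.5 on the log2 scale also required, 9 were lower and 1 higher, against 8.84% and 9.59% of all genes. Fewer genes were called lower without set 1 replicate 1, with a median of -0.19, and without set 2 replicate 1, with a median of -0.15. Mrpl33 had 203 and 192 normalized CPM in set 1 and 92.6 and 109 in set 2, a separation by about 2-fold, with a log2 difference of -0.98 ± 0.08 (SE, adjusted p = 1.32e-11). Mrpl20 had 54.3 and 50.2 normalized CPM in set 1 and 25.9 and 33.8 in set 2, again without overlap, and a log2 difference of -0.82 ± 0.11 (SE, adjusted p = 1.48e-07). The large-subunit genes Mrpl54 (-0.73 ± 0.11 (SE, adjusted p = 1.22e-06)) and Mrpl55 (-0.62 ± 0.11 (SE, adjusted p = 5.27e-05)) and the small-subunit genes Mrps28 (-0.62 ± 0.13 (SE, adjusted p = 3.43e-04)) and Mrps18c (-0.61 ± 0.11 (SE, adjusted p = 2.70e-05)) followed. The 3 genes higher in set 2 were Mrps16, Mrpl9 and Mrpl14. Mrps16, the counterpart of bacterial S16, had 17.0 and 15.8 normalized CPM in set 1 and 25.5 and 30.7 in set 2, and both set 2 libraries were above both of set 1, by 0.77 ± 0.12 (SE, adjusted p = 6.26e-06) on the log2 scale. Mrpl9 differed by 0.31 ± 0.08 (SE, adjusted p = 0.00171) and Mrpl14 by 0.25 ± 0.08 (SE, adjusted p = 0.0142). Tgfbr2 was lower in set 2 than in set 1 (-0.43 ± 0.08 (SE, adjusted p = 1.16e-04)) and Myc was higher (0.42 ± 0.08 (SE, adjusted p = 1.20e-04)).

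Other genes that serve the mitochondrial ribosome were followed in the premalignant comparison of sgTgfbr2 with sgScr, where 23.5% of all genes tested fell and 22.7% rose. Mitoribosomal proteins with other symbols had 4 of 7 lower and none higher (median -0.46). They included Gadd45gip1 (log2 fold change -0.85 ± 0.08), a large-subunit protein, Ptcd3 (-0.63 ± 0.10), a small-subunit protein that binds RNA, and Ict1 (-0.46 ± 0.14), a release factor built into the large subunit and also called Mrpl58. Among mitoribosome assembly factors 10 of 27 fell and 1 rose (median -0.18), with Fastkd2, an RNA-binding factor for the large subunit, at -1.14 ± 0.19. Mitochondrial translation factors had 6 of 12 lower and none higher (median -0.33), among them the elongation factors Tufm (-0.38 ± 0.08) and Gfm1 (-0.62 ± 0.17). Mitochondrial tRNA synthetases moved in both directions, with 6 of 20 lower and 3 higher. The cysteinyl enzyme Cars2 fell by 1.32 ± 0.19 while the isoleucyl enzyme Iars2 rose by 0.84 ± 0.10. Genes for expression of mitochondrial DNA had 5 of 16 lower and 1 higher. The mRNAs encoded by mitochondrial DNA are not among the symbols of the tables and were not analysed here.

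Import and chaperone genes had 21 of 26 lower and none higher (median -0.62), with Hspd1, the mitochondrial chaperonin, at -1.37 ± 0.17 and Tomm40, the outer membrane import channel, at -1.20 ± 0.17. Nuclear oxidative phosphorylation genes had 41 of 75 lower and 3 higher (median -0.37), where 23.5% of all genes fell and 22.7% rose. Nucleolar genes that build the cytosolic ribosome had 23 of 24 lower (median -0.92), with Nop58, a core protein of small nucleolar particles, at -1.23 ± 0.12. The cytosolic ribosomal proteins themselves had 10 of 75 lower and 1 higher (median -0.11), so the 77 mitochondrial ribosomal protein genes had a larger share called lower than their cytosolic counterparts. That contrast between lists was not tested.

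Known regulators of mitochondrial or growth genes had 5 of 16 higher and 1 lower, where 22.7% of all genes rose and 23.5% fell. Ppargc1a, a coactivator of mitochondrial biogenesis, rose by 2.61 ± 0.55 from 1.09 to 6.75 normalized CPM. Mycl, a Myc family member, rose by 1.36 ± 0.13, and Mxd1, which competes with Myc for its partner Max, rose by 0.86 ± 0.15. Pprc1, a coactivator related to Ppargc1a, was the 1 that fell, by 0.35 ± 0.12 (adjusted p = 0.0347). Myc, which all groups were declared to overexpress, had a log2 fold change of 0.43 ± 0.16 (SE, adjusted p = 0.0515) and did not pass.

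**Figure D4:**
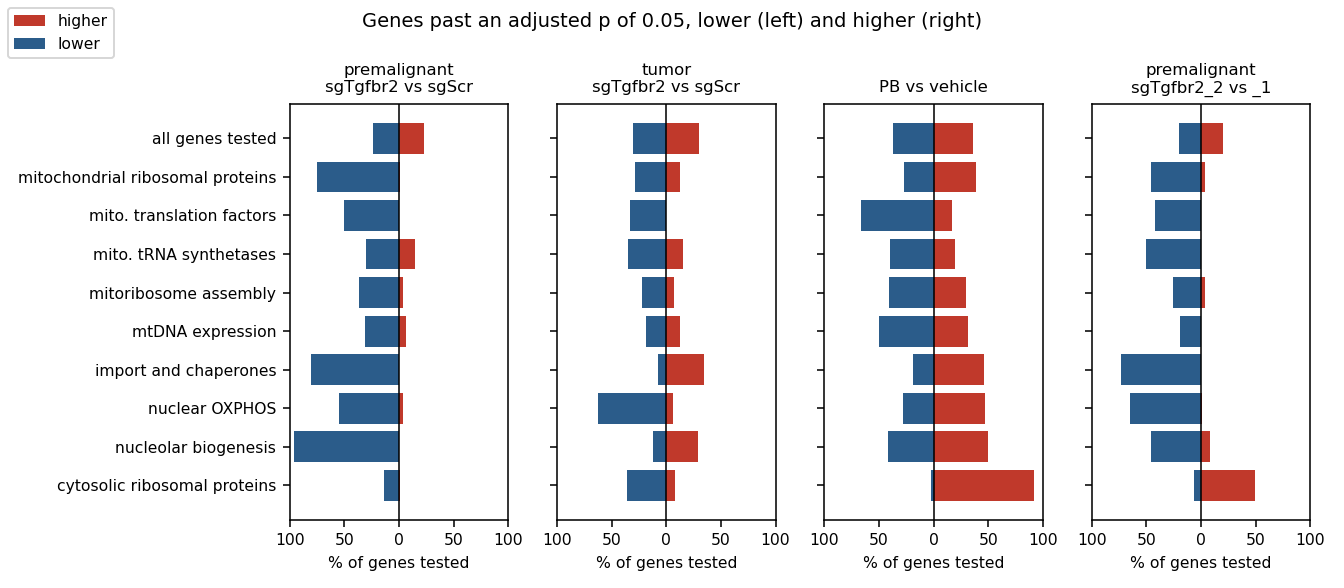
Percent of tested genes past an adjusted p of 0.05 in each list, lower to the left (blue) and higher to the right (red), in the 4 comparisons; the top bar is all genes tested. In the premalignant comparison the mitochondrial ribosomal protein, import and nucleolar bars extend almost wholly to the left, and under PB the cytosolic ribosomal protein bar extends to the right.

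Promoter sequence was available for 68 of the 77 genes, in windows of 250 bases before to 50 after the start (RefSeq, GRCm38.p6). On both strands 4 motifs were searched: the E-box CACGTG bound by Myc family proteins, the ETS motif CCGGAAG, the NRF1 motif (GCGC, any 2 bases, GCGC) and the YY1 motif AAGATGGCG. The ETS motif was in the windows of 25 of the 68 genes (36.8%), against 19.7% of 9976 genes tested in the premalignant table and 9.93% of all 27025 genes with a window. The NRF1 motif was in 14 (20.6%, against 14.9% and 7%), the YY1 motif in 8 (11.8%, against 3.52% and 1.64%) and the E-box in 5 (7.35%, against 11.8% and 8.09%). Among the 52 of these genes that fell in premalignant sgTgfbr2, 20 had the ETS motif, 10 the NRF1 motif, 8 the YY1 motif and 4 the E-box. Among the 15 that did not pass, the counts were 5, 4, 0 and 1. A match describes the letters only and is neither a bound site nor a cause. Stretches of genes named in the text, each wholly before both the RefSeq start and the gene start in the GENCODE coordinates, are shown as examples of each motif on the gene's strand, 5′ to 3′, with the motif in capitals, which reads as its reverse complement where it lies on the other strand.
Mrpl52, ETS, chr14:54426837-54426893, plus strand: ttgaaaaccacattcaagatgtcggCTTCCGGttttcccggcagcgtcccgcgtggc
Mrpl12, NRF1, chr11:120484531-120484590, plus strand: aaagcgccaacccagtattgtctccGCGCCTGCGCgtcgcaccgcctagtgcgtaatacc
Mrpl20, E-box, chr4:155802820-155802875, plus strand: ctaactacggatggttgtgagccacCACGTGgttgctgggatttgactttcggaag
Mrps11, YY1, chr7:78782998-78783056, plus strand: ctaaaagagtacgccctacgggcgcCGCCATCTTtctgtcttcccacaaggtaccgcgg
Mrpl44, NRF1, chr1:79775958-79776017, plus strand: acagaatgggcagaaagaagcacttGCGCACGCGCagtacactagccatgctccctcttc
Mrps21, NRF1, chr3:95871571-95871630, minus strand: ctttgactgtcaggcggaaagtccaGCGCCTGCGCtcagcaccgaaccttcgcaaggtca

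In the tumor libraries the 77 genes did not move as a group. With the Tgfbr2 guide 22 fell, 10 rose and 45 did not pass, where 30.5% of 15091 genes fell and 29.8% rose. The median was -0.10, against -0.02 over all genes. These counts depended on scaling: by library total in place of TMM (edgeR's scaling for composition), 13 fell and 25 rose, where 22.3% of all genes fell and 40.1% rose, and the median over all genes moved to 0.26. Without tumor sgTgfbr2 replicate 1 fewer rose, and the median of the 77 genes was -0.24, against -0.03 over all genes. The groups did not overlap for 29 genes lower and 17 higher, where 36.7% and 36.0% of all genes did so. With a change of at least 0.5 on the log2 scale also required, 17 fell and 5 rose, against 28.0% and 26.6% of all genes. Mrpl42 (chromosome 10, 95480805 to 95501940, minus strand), a mitochondrion-specific large-subunit protein, had 117, 131 and 128 normalized CPM in tumor sgScr and 37.4 and 34.2 in tumor sgTgfbr2. Every sgTgfbr2 library was far below every sgScr library, with a log2 fold change of -1.81 ± 0.14 (SE, adjusted p = 2.77e-10). Mrpl15 (chromosome 1, 4773206 to 4785739, minus strand), a large-subunit protein, had 68.0, 94.9 and 81.9 normalized CPM in tumor sgScr and 32.6 and 31.2 in tumor sgTgfbr2, also without overlap, and a log2 fold change of -1.36 ± 0.16 (SE, adjusted p = 2.06e-07).

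Next were Mrpl23 (-1.22 ± 0.15 (SE, adjusted p = 4.42e-07)) and Mrpl4 (-1.20 ± 0.15 (SE, adjusted p = 4.18e-07)), whose bacterial counterparts lie along the exit tunnel, then Mrpl49 (-1.10 ± 0.17 (SE, adjusted p = 8.29e-06)) and Mrps31 (-1.02 ± 0.23 (SE, adjusted p = 5.25e-04)), both specific to mitochondria. Mrps36, the dehydrogenase subunit, had -0.74 ± 0.19 (SE, adjusted p = 0.00233). Among the genes that rose, Mrpl9 (chromosome 3, 94443318 to 94451130, plus strand), the counterpart of bacterial L9, had 50.3, 60.6 and 48.5 normalized CPM in tumor sgScr and 104 and 101 in tumor sgTgfbr2. Its tumor sgTgfbr2 libraries were above all sgScr libraries, by 0.95 ± 0.14 (SE, adjusted p = 4.67e-06) on the log2 scale. Mrpl13, the counterpart of bacterial L13, had 49.4, 57.8 and 51.6 normalized CPM in tumor sgScr and 89.8 and 85.5 in tumor sgTgfbr2 and rose by 0.73 ± 0.14 (SE, adjusted p = 1.00e-04). Mrpl33 had 77.7, 96.1 and 80.3 normalized CPM in tumor sgScr and 157 and 119 in tumor sgTgfbr2 and rose by 0.71 ± 0.14 (SE, adjusted p = 2.33e-04). Mrps6 (0.68 ± 0.18 (SE, adjusted p = 0.00304)), Mrps35 (0.66 ± 0.16 (SE, adjusted p = 0.00126)), Mrpl52 (0.48 ± 0.15 (SE, adjusted p = 0.00993)) and Mrpl43 (0.43 ± 0.15 (SE, adjusted p = 0.0166)) were higher without overlap, while the libraries of Mrps16 (0.47 ± 0.18 (SE, adjusted p = 0.0306)) overlapped. Exons of Mrpl9 overlap Oaz3, those of Mrpl13 overlap Mtbp, those of Mrpl43 overlap Twnk (Peo1) and those of Mrpl49 overlap Syvn1, each on the opposite strand. Exons of Mrps6 overlap Slc5a3 on the same strand, so reads there cannot be told apart by strand. Of the 6 genes named first for their premalignant decrease, none was called lower in the tumor comparison. These 6 were picked by the size of that decrease. Of all 77 genes 22 were lower in the tumor comparison, as were 30.5% of all genes tested. Mrpl42, Mrpl15, Mrpl4, Mrpl49 and Mrps36 were among the genes called lower in both comparisons. In all 4 comparisons 4 genes were called lower. Neither overlap was counted over all genes. The comparison between the sets reused the premalignant sgTgfbr2 libraries, so the 4 comparisons are not independent.

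Cell type markers differed widely between the tumor groups. All 15 skeletal muscle markers were called lower in tumor sgTgfbr2, with the sums given above, and all 12 gastric columnar markers were called higher, from a sum of 2.44 to 2.90 CPM to one of 29950 to 32960. The 10 squamous markers summed to 131296 to 144465 CPM in sgScr and 21872 to 22562 in sgTgfbr2, and 6 smooth muscle markers to 401 to 426 and 1524 to 1653. Of the squamous markers 7 were called lower and 3 higher, and of the smooth muscle markers 5 were called higher and 1 lower. Immune markers summed to 891 to 912 and 734 to 761 CPM, and fibroblast markers to 2859 to 3046 and 2301 to 2357. Their part in the differences of mitochondrial ribosomal protein genes was not tested. Nuclear oxidative phosphorylation genes had 48 of 77 lower and 5 higher in this comparison (median -0.50), cytosolic ribosomal proteins 27 of 76 lower and 6 higher, and import and chaperone genes 9 of 26 higher and 2 lower. Over all genes tested, 30.5% were lower and 29.8% higher. Gadd45gip1 rose by 1.37 ± 0.21, and the mitochondrial valyl-tRNA synthetase Vars2 by 2.08 ± 0.20, while the translation factor Gfm2, which recycles ribosomes, fell by 1.53 ± 0.21.

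**Figure D5:**
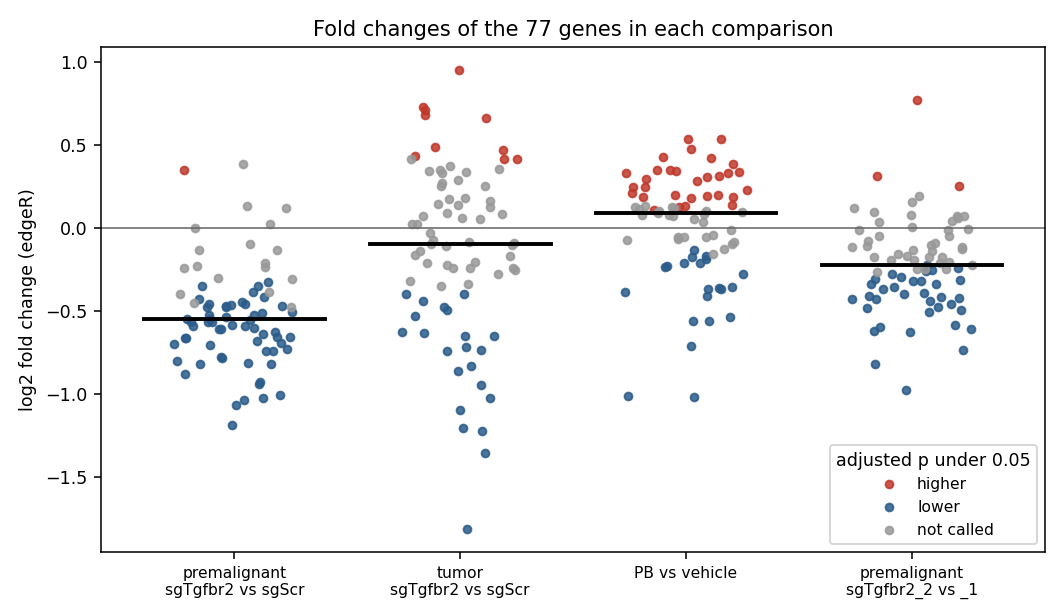
Log2 fold change (y axis, edgeR) of each of the 77 genes in the 4 comparisons; points are genes, coloured by call at an adjusted p of 0.05, spread sideways for display, and bars are medians. The premalignant sgTgfbr2 points lie mostly below zero with a median of -0.55, while the tumor and PB points spread on both sides of zero.

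Under PB the 77 genes moved in both directions by small amounts. With PB 30 rose, 21 fell and 26 did not pass, where 36.5% of 12801 genes rose and 36.8% fell. The median was 0.09, against -0.01 over all genes. By library total in place of TMM, 17 rose and 32 fell, where 25.8% of all genes rose and 48.1% fell, and the median over all genes moved to -0.15. With a change of at least 0.5 on the log2 scale also required, 2 rose and 6 fell, where 13.0% of all genes rose and 19.9% fell. All PB libraries were above all vehicle libraries for 27 genes and below them for 23, where 36.8% and 37.2% of all genes were. Mrpl41 (chromosome 2, 24974117 to 24975098, minus strand), a mitochondrion-specific large-subunit protein, had 21.5, 19.6 and 19.1 normalized CPM with vehicle and 11.3, 9.09 and 9.40 with PB. All PB libraries were below all vehicle libraries, and the ratio of the means was 0.495, with a log2 fold change of -1.02 ± 0.10 (SE, adjusted p = 3.75e-15). Mrps2 (chromosome 2, 28468066 to 28471178, plus strand), the counterpart of bacterial S2, had 32.3, 30.6 and 31.0 normalized CPM with vehicle and 15.1, 15.3 and 16.1 with PB. The groups were tight and well apart, at 15.5 ± 0.518 (SD, n = 3) and 31.3 ± 0.878 (SD, n = 3), with a log2 fold change of -1.01 ± 0.07 (SE, adjusted p = 9.69e-20). Mrps21, the counterpart of bacterial S21, had 38.5, 39.5 and 36.3 normalized CPM with vehicle and 23.4, 20.7 and 25.7 with PB, also without overlap, and a log2 fold change of -0.71 ± 0.07 (SE, adjusted p = 7.64e-15).

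Smaller decreases without overlap were found for Mrpl17 (-0.56 ± 0.05 (SE, adjusted p = 1.33e-15)), Mrpl18 (-0.56 ± 0.05 (SE, adjusted p = 2.57e-14)), Mrps36 (-0.54 ± 0.08 (SE, adjusted p = 4.00e-08)), Mrpl51 (-0.41 ± 0.06 (SE, adjusted p = 1.83e-09)) and Mrpl12 (-0.39 ± 0.04 (SE, adjusted p = 9.31e-13)). The highest increases were in Mrps28 and Mrps30. Mrps30 (chromosome 13, 118378381 to 118387252, minus strand) had 51.6, 48.8 and 45.6 normalized CPM with vehicle and 70.1, 73.2 and 67.8 with PB, every PB library being above every vehicle library, by 0.53 ± 0.05 (SE, adjusted p = 9.19e-16) on the log2 scale. Mrps28 had 13.5, 12.2 and 13.6 normalized CPM with vehicle and 20.4, 18.6 and 17.9 with PB and rose by 0.53 ± 0.09 (SE, adjusted p = 2.36e-07). Mrpl20 (0.48 ± 0.06 (SE, adjusted p = 2.56e-11)), Mrpl9 (0.43 ± 0.04 (SE, adjusted p = 2.48e-16)), Mrpl57 (0.42 ± 0.06 (SE, adjusted p = 6.08e-09)), Mrpl13 (0.38 ± 0.04 (SE, adjusted p = 8.62e-13)) and Mrpl33 (0.33 ± 0.04 (SE, adjusted p = 3.90e-11)) were also higher. Mrpl12 and Mrpl18 were thus called lower both under PB and in premalignant sgTgfbr2, whereas Mrpl20 and Mrps28 were called lower in premalignant sgTgfbr2 and higher under PB. The Mrps18 genes had log2 fold changes of 0.09, 0.13 and -0.05 and did not pass.

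Among related genes under PB, cytosolic ribosomal proteins had 69 of 75 higher and 2 lower (median 0.23), and nuclear oxidative phosphorylation genes 36 of 76 higher and 21 lower. Over all genes tested under PB, 36.5% were higher and 36.8% lower. Import and chaperone genes had 12 of 26 higher and 5 lower, with Hspa9, the mitochondrial Hsp70, at 1.12 ± 0.02 and Lonp1, the matrix protease, at 0.91 ± 0.02. Genes that express mitochondrial DNA had 8 of 16 lower and 5 higher, with the transcription elongation factor Tefm at -1.66 ± 0.16, the helicase gene Peo1 at -1.53 ± 0.09 and Tfam, the packaging and transcription factor, at -0.52 ± 0.05. Mitochondrial translation factors had 8 of 12 lower and 2 higher, assembly factors 11 of 27 lower and 8 higher, and tRNA synthetases 8 of 20 lower and 4 higher, with the prolyl enzyme Pars2 at -1.72 ± 0.13. The shares lower of assembly factors (40.7%) and tRNA synthetases (40.0%) were near the 36.8% of all genes. The sum of the 10 squamous markers was 9377 to 9506 CPM with vehicle and 7439 to 7494 with PB, with 6 of the 10 called lower, 2 higher and 2 not past the threshold. Gastric columnar markers summed to 719 to 730 CPM with vehicle and 455 to 461 with PB, skeletal muscle markers to 17.97 to 18.7 and 8.98 to 10.4, and smooth muscle markers to 5.51 to 6.74 and 1.65 to 3.27, each without overlap. These sums rest on few genes, and the gastric genes Gkn2, Tff1 and Tff2 had no count with vehicle or PB. Only 4 of 12 gastric columnar markers passed the filter on low counts, of which 3 were called lower. For skeletal muscle 5 of 15 passed it and 4 were lower, and for smooth muscle 2 of 6 passed it and 1 was lower. The part of these markers in the differences of the 77 genes was not tested.

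In the authors' deposited table, their own tests called 59 of the 77 genes lower and 1 higher in the premalignant comparison, where 20.0% of 15446 genes with an adjusted p were lower and 21.1% higher. For the tumor comparison the authors' deposited table gave 21 lower and 7 higher, against 25.8% and 24.5% of 17551 genes. For PB the authors' deposited table gave 15 lower and 24 higher, against 26.0% and 27.2% of 15865 genes.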

How the data were processed

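RNA of 18 libraries was sequenced in bulk after Trizol extraction. The authors deposited 3 tables, which per the file headers hold whole-number counts per gene, normalized values, and their own log2 fold changes and p-values. The submitters' processing notes name the mm10 build, DESeq2 1.26.0 and STAR 2.6.0a. How reads were counted, with which annotation and strand setting, is not given in the sources used here. Normalized values (18 columns) were left unused. From the authors' log2 fold change and p-value columns only their calls were taken.

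Counts were analysed in R 4.3.3 with edgeR 4.0.16, within each table: filterByExpr (minimum count 10), TMM scaling, and the two-sided quasi-likelihood test with Benjamini-Hochberg adjustment over all genes tested, at 0.05. The script was tested on simulated data. There, 1.5-fold changes were recovered for 43% of changed genes in the premalignant sgTgfbr2, 33% in the tumor, 88% in the PB and 64% in the set comparison. The share of false calls was 7.69%, 3.81%, 3.24% and 3.85% in the same order. Normalized CPM are counts divided by the TMM-scaled library total and brought to a common scale, so values of a gene differ slightly between comparisons that scale other libraries. With these depths, 3 counts stand for 0.138 to 0.200 CPM. Replicates were compared by chi-square per degree of freedom, and none were merged. Pairs within vehicle and within PB had 1.51 to 2.03, and pairs within the premalignant and tumor groups 6.4 to 21.3. The PB comparison thus rests on replicates that differed least. Gene positions and transcript lengths are from GENCODE M21 (GRCm38).

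Members, gene lists and tests were chosen with earlier results of these data known. Named per comparison were the 6 highest and 6 lowest called members whose groups did not overlap, up to 8 called against the majority, the 3 most and 3 least abundant per kb, members with a distinct place, and up to 3 called genes per list. Mrps7, Mrps9, Mrps11, Mrpl21, Mrpl34, Ict1 and Pprc1 are outside this rule and were named after their values were seen. Also outside it are genes named only in the list of those that did not pass in the premalignant comparison. Alternatives were DESeq2 1.42.0 (size factors, Wald test), limma-voom (limma 3.58.1), library totals, other filters, a minimum change, a replicate block, the sets alone or summed, and each replicate left out.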

Additional observations from a re-analysis of the deposited data

Results flagged for a closer look

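Within the 4 premalignant sgTgfbr2 libraries, 2 of the 77 genes had 1 library far from the others, where chance alone marks about 1 in 20 groups. Mrpl23 had 33.9 normalized CPM in set 2 replicate 1, and the other libraries had 47.0 to 49.5. Mrpl34, a large-subunit protein, had 48.2 normalized CPM in the same library, and the others had 56.9 to 57.7. The numbered sets also differed from each other when compared directly by edgeR, with 35 of the 77 genes lower and 3 higher in set 2 than in set 1. Over all genes, 20.0% were lower and 20.4% higher.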

How the results depend on the processing

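The 58 genes lower in premalignant sgTgfbr2 ranged from 42 to 62 with each library left out, where 15.7% to 23.0% of all genes fell. Under each of the 18 alternatives, the minimum change included, 37 of the 77 were lower, a count not made over all genes. The 1 higher gene became 0 with a minimum change of 0.5 on the log2 scale and with summed sets, and 2 in either set alone. The count was 0 to 1 with libraries left out, where 14.7% to 23.3% of all genes rose. In the tumor comparison the 10 higher and 22 lower genes became 25 and 13 by library total, and 5 were higher with the minimum change. With tumor libraries left out, 5 to 15 were higher and 16 to 22 lower, and 13 lower and 5 higher genes held under each of the 13 alternatives. Under PB the 30 higher and 21 lower genes became 17 and 32 by library total and 2 and 6 with the minimum change. Leaving out libraries gave 26 to 30 higher and 18 to 21 lower under PB, where 34.5% to 35.1% of all genes rose and 34.7% to 35.1% fell. For set 2 against set 1, the 3 higher and 35 lower genes became 1 and 9 with the minimum change. By DESeq2, 26 were lower, as were 15.1% of all genes. The cause of these shifts was not tested. Arms left with 1 library were fitted with the spread of the other groups.

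Same-numbered libraries had correlations of -0.10 to 0.14 in their deviations from group means, and other-numbered libraries -0.15 to 0.15. In groups of 2 libraries the deviations are mirror images, so there this check cannot decide whether replicate numbers pair the libraries. With the replicate block, the premalignant counts were 57 lower and 0 higher, against 18.9% and 17.3% of all genes. The tumor counts were 21 and 6 (25.6% and 24.8% of all genes). The PB counts were 21 and 30 (36.7% and 36.5%), and the set counts 34 and 3 (19.6% and 19.9%).

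Of 2067 values under alternatives, for the 39 named genes, 1859 kept their direction and side of the threshold, 109 were no longer past it, 46 came past it and 53 changed sign. Their log2 fold changes before were at most 0.39 in size. Over all 77 genes, 4 that had passed the threshold changed sign: Mrpl42, Mrps26, Mrps7 (0.13 to -0.012) and Mrps9 (0.14 to -0.0029), all under PB by library total. By library total the log2 fold changes in the tumor comparison became 0.18 for Mrpl20, 0.19 for Mrpl41, 0.20 for Mrpl44, 0.083 for Mrpl47, 0.058 for Mrpl54, 0.045 for Mrps2 and 0.077 for Mrps30. By library total the PB values became -0.035 for Mrpl42, -0.012 for Mrpl47, -0.044 for Mrpl52, -0.061 for Mrpl54, -0.019 for Mrps16, -0.050 for Mrps18a, -0.011 for Mrps18b, -0.011 for Mrps26, -0.088 for Mrps35 and -0.037 for Mrps6. With the replicate block, Mrpl14 (-0.0094) and Mrps31 (-0.028) changed sign in premalignant and Mrps18a (-0.055), Mrps18c (-0.052) and Mrps26 (-0.14) in tumor libraries. Limma-voom gave -0.0044 for Mrpl14. Set 1 alone gave -0.10 for Mrpl14 and -0.27 for Mrps16, and set 2 alone gave -0.19 for Mrpl33. With 1 library left out, premalignant values spanned -0.028 to 0.058 for Mrpl14, -0.039 to 0.27 for Mrps16 and -0.028 to 0.074 for Mrps31. Tumor values spanned -0.28 to 0.043 for Mrpl20, -0.27 to 0.049 for Mrpl41, -0.23 to 0.038 for Mrpl44, -0.51 to 0.015 for Mrpl54, -0.17 to 0.24 for Mrps18a, -0.30 to 0.36 for Mrps18c, -0.26 to 0.26 for Mrps26 and -0.033 to 0.36 for Mrps34. Set 2 against set 1 spanned -0.12 to 0.093 for Mrpl44, -0.28 to 0.017 for Mrpl52, -0.0045 to 0.16 for Mrps18a, -0.11 to 0.015 for Mrps30, -0.063 to 0.26 for Mrps31 and -0.025 to 0.16 for Mrps6. PB values spanned -0.051 to 0.034 for Mrpl49 and -0.079 to 0.0020 for Mrps25.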
